A study of Homo sapiens with 8 samples.

Results

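Symbols made of LINC and a number are given to long intergenic non-coding RNAs, transcripts that lie between protein-coding genes and are named for their place in the genome because no function gave them a name. Here they were followed in BCPAP cells, a human cell line from a papillary thyroid carcinoma, after knockdown of *EPB41L4A*, which encodes a member of the band 4.1 family of proteins with a FERM domain. Of 928 such RNAs with a probe set of their own on the array, the 200 with the highest mean over all 8 arrays (21.6%) are described. They were chosen by that mean, which pools both groups and does not use the difference between them, so levels are given as a description and differences are tested. All 200 were among the 66831 probe sets tested, and 176 of them lay above the array median on all 8 arrays.

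Cells of the si*EPB41L4A* group had received a pool of siRNAs against *EPB41L4A*, and those of the si*NS* group a non-targeting pool. Cells were harvested 72 h after transfection, and total RNA was hybridised to Clariom D Human arrays, 4 per group, from experiments that the labels place at separate time points. The labels give all 8 samples the same parental line and the same transfection reagent. Each group rests on 1 pool, so effects of the si*EPB41L4A* pool on other transcripts cannot be told apart from those of losing *EPB41L4A*. The titles and source names of the control samples read si*NS*, but their protocol text mentions an siRNA to *LRRC34*. *LRRC34* averaged 5.02 ± 0.73 in si*EPB41L4A* cells and 4.39 ± 0.55 in si*NS* cells (SD, n = 4 each), a change that did not pass the test (adjusted p = 0.504, limma). Both means lie under the 95th percentile of the array's negative control probe sets (5.97 to 6.43 on single arrays). These values therefore cannot show whether *LRRC34* was lowered in the control cells. No source used here says that both groups were hybridised together, and run and group cannot be told apart.

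Values are the log2 values of the deposited table, so a difference of 1 means a doubling on the scale of the table. *EPB41L4A* itself was at 5.55, 5.94, 6.72 and 7.09 on the si*EPB41L4A* arrays, against 9.65, 9.22, 9.81 and 9.44 on the si*NS* arrays. Its log2 change was -3.20 (standard error 0.32, adjusted p = 0.000491, limma), and the groups did not overlap (p = 0.0286 by exact two-sided permutation, which is the minimum for 4 arrays against 4). Arrays correlated with one another at 0.962 to 0.977. The thyroid transcription factor genes *PAX8* and *NKX2-1* averaged 13.3 and 9.05 over all arrays, whereas *TG*, *TSHR* and *SLC5A5*, which serve hormone synthesis, lay at 3.17, 3.44 and 3.33, under the array medians of 3.72 to 3.84. Over all tested probe sets 2.61% passed the test, and of tested protein-coding genes 7.42%. None of 4 tested thyroid markers and none of 5 tested blood and endothelial markers passed it, which says little in lists of this size. Of 5 tested epithelial markers *KRT7* and *EPCAM* fell by 1.42 and fell by 2.43 (adjusted p = 0.00645 and 0.00683, limma), and *CDH1* was under the array medians at 3.53. *KRT8*, *KRT18* and *KRT19* had changes of -1.02, -0.55 and 0.15 that did not pass the test (adjusted p = 0.109, 0.566 and 0.824, limma). The summed level of the epithelial list on the log2 scale was 15.07 to 16.04 in si*EPB41L4A* cells, against 16.25 to 16.87 in si*NS* cells. For the thyroid list it was 12.83 to 13.94 in si*EPB41L4A* cells and 12.73 to 13.76 in si*NS* cells, and for the blood and endothelial list 6.48 to 6.85 in si*EPB41L4A* cells and 6.56 to 6.73 in si*NS* cells. The epithelial sum rests mostly on *KRT7*, *KRT8* and *KRT18*, which averaged 14.7, 14.68 and 13.19 over all arrays, and does not describe the whole list. The part of these epithelial changes in the results below was not tested.

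Long intergenic RNAs are made by RNA polymerase II, are often spliced and polyadenylated, and are on the whole less abundant and more restricted to particular tissues than messenger RNAs. Some act in *cis* on genes beside them, some bind proteins or messenger RNAs elsewhere in the cell, a few encode small proteins, and for most no function is known. In thyroid and other carcinomas several have been studied as promoters or inhibitors of growth and invasion. Their abundance is set by transcription and by decay, in which the nuclear exosome and, at many non-coding genes, the Integrator complex take part.

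The most highly ranked probe sets were far above background, but most of the 200 were not. Means over 8 arrays ran between 4.23 and 15.93, with a median of 4.94. There were 14 RNAs with a mean of 10 or more, 18 with a mean between 7 and 10, 61 between 5 and 7, and 107 under 5. The array carries 612 negative control probe sets, whose mean was 4.05 to 4.29 and whose 95th percentile was 5.97 to 6.43 on single arrays. By that measure 33 RNAs lay above the 95th percentile on all 8 arrays, 46 on some and 121 on none. The negative controls averaged 4.15 in si*EPB41L4A* cells and 4.21 in si*NS* cells, and 181 of the RNAs had both group means above that of the controls. Being among the highest of the LINC probe sets was therefore not the same as being detected, and values of different probe sets give an order of signals, not of RNA amounts.

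**Figure D1:**
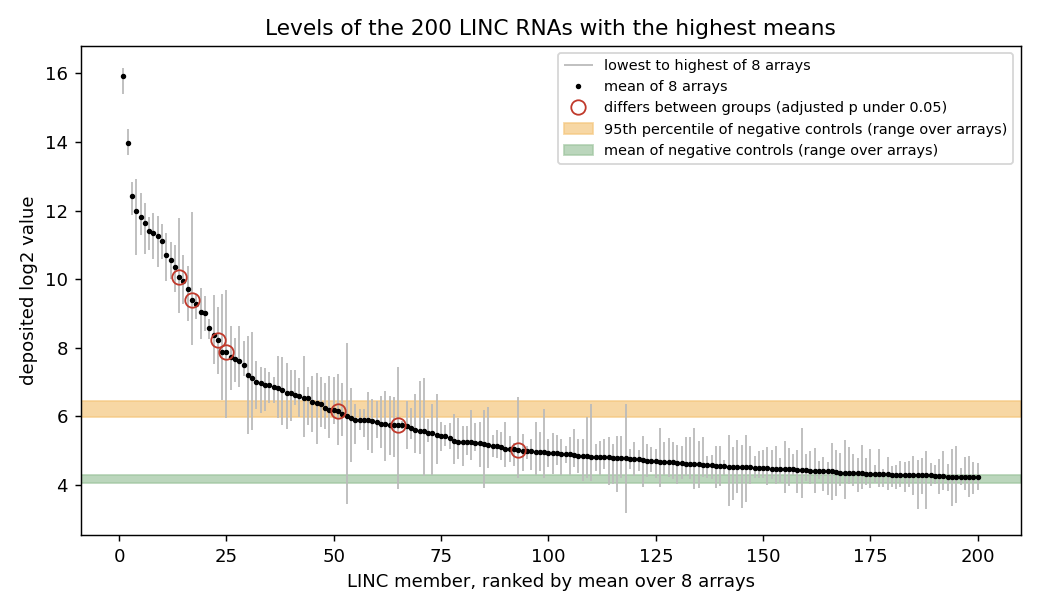
Mean deposited log2 value (points) and range over 8 arrays (grey lines) of the 200 LINC RNAs by rank, with the range over arrays of the 95th percentile (orange) and the mean (green) of the negative controls. Red circles mark the 7 RNAs that differed between groups, and 121 of the 200 lie above the 95th percentile on no array.

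*LINC01002* and *LINC00973* led the ranking. *LINC01002* averaged 15.91 ± 0.35 in si*EPB41L4A* cells and 15.94 ± 0.24 in si*NS* cells, and *LINC00973* averaged 13.95 ± 0.34 in si*EPB41L4A* cells and 14.01 ± 0.24 in si*NS* cells (SD, n = 4 each). The changes of the pair were -0.03 and -0.06 on the log2 scale. The next 8 by mean were *LINC01000*, *LINC01001*, *LINC02210*, *LINC00674*, *LINC00623*, *LINC01128*, *LINC00265* and *LINC00869*, with changes between -0.85 and 0.47. None of the 10 passed the test (adjusted p of 0.0585 or more, limma). In 6 of the 10, namely *LINC01002*, *LINC00973*, *LINC01000*, *LINC01001*, *LINC00674* and *LINC00265*, the array labelled replicate 1 was the lowest of its group in si*EPB41L4A* cells and in si*NS* cells alike. At the lower end, *LINC01299*, *LINC00703* and *LINC00207* were the last 3 included, all at a mean of 4.23, and *LINC00410*, *LINC01305* and *LINC01043* the first 3 left out, at 4.21, 4.21 and 4.20.

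Some of these genes share near-identical stretches, which bears on how their probe sets can be read. The start regions of *LINC01002*, *LINC01001* and *LINC01061*, which ranked 1, 4 and 144, share the stretch printed here from RefSeq (GRCh38.p14), at chr19:202273-202392, chr11:131984-132103 and chr4:119410749-119410868, all on the minus strand. It is shown because 117 of its 120 bases are the same in all 3. Capitals mark the positions at which they differ.
LINC01002: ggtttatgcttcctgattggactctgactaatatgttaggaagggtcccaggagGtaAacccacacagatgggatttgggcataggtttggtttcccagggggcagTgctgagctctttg
LINC01001: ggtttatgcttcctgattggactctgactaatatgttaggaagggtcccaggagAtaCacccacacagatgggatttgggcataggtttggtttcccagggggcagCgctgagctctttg
LINC01061: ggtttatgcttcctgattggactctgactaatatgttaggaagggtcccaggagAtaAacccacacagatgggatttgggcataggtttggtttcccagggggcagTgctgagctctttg
Over the 300 bases around each annotated start, an alignment of *LINC01002* with *LINC01061* was identical at 270 of 325 aligned positions (83.1%) and one with *LINC01001* at 230 of 367 (62.7%). *LINC01001* and *LINC01061* were identical at 250 of 342 (73.1%). The 300-base windows begin at different points of the shared sequence, so the aligned positions include ends that have no partner in the other window. These shares therefore do not measure how far the genes differ outside the printed stretch. The probes and the gene bodies were not compared, so whether signal of one gene reaches the probes of another was not tested, and the values of these 3 probe sets are uncertain as values of single genes. *LINC01001* was at 10.70, 12.07, 12.92 and 12.56 on the si*EPB41L4A* arrays, against 11.01, 12.43, 11.73 and 12.42 on the si*NS* arrays. The spread within each group was much larger than the difference of 0.16 between them.

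Few of the 200 RNAs had a difference that passed the test after knockdown of *EPB41L4A*. Of the 200, 7 passed the test at an adjusted p of 0.05 (3.5%), 4 higher and 3 lower in si*EPB41L4A* cells. Over all tested probe sets 2.61% passed, 1.23% higher and 1.38% lower. The share was 7.42% of 13813 protein-coding genes, 1.98% of 757 lncRNA genes with other names, and 0 of the 149 tested LINC genes ranked below the 200 (limma; 6 of them, 4.03%, had an unadjusted p under 0.05). The share among the 200 was thus near that of all probe sets. Restricted to features above the 95th percentile of the negative controls on all arrays, a choice made after seeing the data, it was 3 of 33 LINC RNAs (9.09%), against 8.1% of all probe sets and 10.9% of protein-coding genes. In bulk RNA, fewer cells of a kind and less RNA per cell cannot be told apart.

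The sizes of change were small as a rule. The median change of the 200 was 0.05, against -0.05 over all tested probe sets, and 109 of the 200 were above 0 and 91 below. The median size of change without regard to direction was 0.24, the same as over all tested probe sets, and 0.33 for protein-coding genes. Changes stayed within 0.5 in 156 of the RNAs and exceeded 1 in 13, of which 9 were higher and 4 lower. An unadjusted p under 0.05 was found for 36 (18.0%), against 13.9% of all tested probe sets. The pooled SD within groups had a median of 0.38 for the LINC RNAs and 0.37 for all tested probe sets. By level, 1 of the 14 RNAs with a mean of 10 or more passed the test, 3 of the 18 between 7 and 10, 3 of the 61 between 5 and 7 and 0 of the 107 under 5, among which 13 had an unadjusted p under 0.05 (limma).

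**Figure D2:**
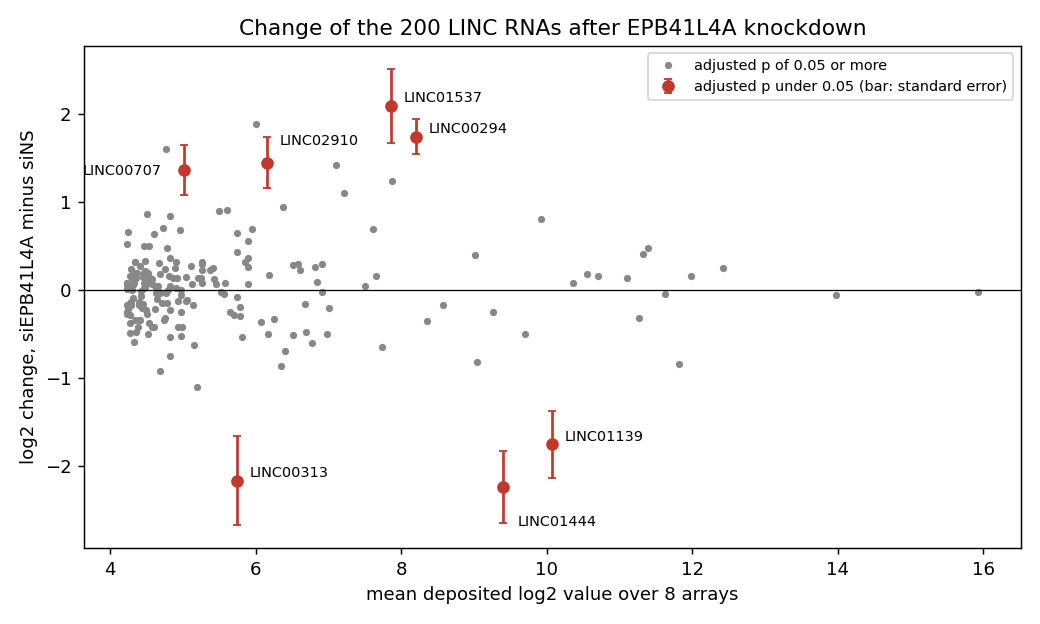
Log2 change (siEPB41L4A minus siNS) of the 200 LINC RNAs against the mean deposited log2 value over 8 arrays, with the 7 at an adjusted p under 0.05 in red (bars, standard error). Of the 200, 156 lie within 0.5 of no change, and no RNA with a mean under 5 passed the test.

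*LINC00294* had the smallest adjusted p of the 200. It was at 9.15, 8.91, 9.18 and 9.07 on the si*EPB41L4A* arrays, against 7.23, 7.35, 7.53 and 7.23 on the si*NS* arrays. All 4 si*EPB41L4A* arrays were high and lay within 0.5 of each other, with a clear gap to the si*NS* arrays. The means were 9.08 ± 0.12 in si*EPB41L4A* cells and 7.34 ± 0.14 in si*NS* cells (SD, n = 4 each), a rise of 1.74 (standard error 0.20, adjusted p = 0.000724, limma). The call held when any single array was left out (adjusted p 0.00248 to 0.00413) and in a fit without moderated variances, in which none of the other 6 RNAs passed. *LINC00294* starts beyond the end of *TCP11L1* on the same strand of chromosome 11, 2587 bases from that gene's body. *TCP11L1* had a change of 0.54 that did not pass the test (adjusted p = 0.354, limma).

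*LINC01537* also rose, with more spread. It was at 8.29, 9.60, 8.06 and 9.68 on the si*EPB41L4A* arrays, against 6.78, 7.50, 5.95 and 7.05 on the si*NS* arrays. The groups did not overlap, although si*EPB41L4A* arrays 1 and 3 stood more than 1 below arrays 2 and 4. The change was 2.09 (8.91 ± 0.85 in si*EPB41L4A* cells against 6.82 ± 0.65 in si*NS* cells, SD, n = 4 each, standard error 0.42, adjusted p = 0.0211, limma). The call was lost without si*EPB41L4A* array 2 or 4 and without si*NS* array 1 or 3, with an adjusted p of up to 0.0750. In lung cancer cells *LINC01537* has been reported to stabilise the mRNA of *PDE2A*, a phosphodiesterase gene that lies 2919 bases away on the opposite strand. *PDE2A* averaged 5.14 ± 0.24 in si*EPB41L4A* cells and 5.01 ± 0.27 in si*NS* cells (SD, n = 4 each), a change of 0.13 that did not pass the test (adjusted p = 0.869, limma). Both means lie under the 95th percentile of the negative controls (5.97 to 6.43), which limits what the values of *PDE2A* can show.

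The other rises were at lower levels. *LINC02910*, once named *C20orf197*, was at 6.09, 7.24, 7.10 and 7.09 on the si*EPB41L4A* arrays, against 5.21, 5.48, 5.93 and 5.15 on the si*NS* arrays. Si*EPB41L4A* array 1 was near the highest si*NS* array and the other 3 were well above it. The 4 si*EPB41L4A* arrays lay above the 95th percentile of the negative controls and all si*NS* arrays under it. The change was 1.44 (6.88 ± 0.53 in si*EPB41L4A* cells against 5.44 ± 0.36 in si*NS* cells, SD, n = 4 each, standard error 0.29, adjusted p = 0.0223, limma). Only without si*EPB41L4A* array 1 or si*NS* array 3 was the call kept, and the adjusted p reached 0.0806 elsewhere. *LINC00707*, reported to promote growth of gastric and other carcinomas, was at 5.60, 6.56, 5.34 and 5.27 on the si*EPB41L4A* arrays, against 4.52, 4.28, 4.19 and 4.31 on the si*NS* arrays. The si*NS* arrays were at the level of the negative controls, and 1 array alone, from si*EPB41L4A* cells, passed their 95th percentile. The change was 1.36 (5.69 ± 0.60 in si*EPB41L4A* cells against 4.33 ± 0.14 in si*NS* cells, SD, n = 4 each, standard error 0.28, adjusted p = 0.0254, limma), and the call was lost without any 1 of the si*NS* arrays (adjusted p of up to 0.0721).

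*LINC01444* showed the largest fall of the 3 that passed the test. It was at 8.51, 8.24, 8.30 and 8.09 on the si*EPB41L4A* arrays, against 9.58, 10.58, 9.98 and 11.95 on the si*NS* arrays. The si*EPB41L4A* arrays were close together and all lower, while the si*NS* arrays spread over more than 2. The fall was 2.24 on the log2 scale (8.29 ± 0.17 in si*EPB41L4A* cells against 10.52 ± 1.04 in si*NS* cells, SD, n = 4 each, standard error 0.41, adjusted p = 0.0140, limma), and it passed the test without any single array (adjusted p 0.00886 to 0.0497). *ANKRD30B*, the nearest protein-coding gene on chromosome 18, had a change of 0.47 (adjusted p = 0.489, limma).

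*LINC01139* fell as well. Known as *LINK-A*, it has been reported to act in HIF1α and AKT signalling in breast cancer cells. It was at 9.0, 9.70, 9.06 and 9.0 on the si*EPB41L4A* arrays, against 11.10, 11.22, 11.77 and 9.71 on the si*NS* arrays. Si*EPB41L4A* array 2 and si*NS* array 4 nearly met, and the other arrays were well apart. The fall was 1.76 on the log2 scale (9.19 ± 0.34 in si*EPB41L4A* cells against 10.95 ± 0.88 in si*NS* cells, SD, n = 4 each, standard error 0.38, adjusted p = 0.0302, limma). The call was kept without si*EPB41L4A* array 2 or si*NS* array 4 and lost without any other array (adjusted p of up to 0.0911).

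*LINC00313*, which has been studied in papillary thyroid carcinoma, gave the least secure call. It was at 5.71, 5.15, 3.91 and 3.89 on the si*EPB41L4A* arrays, against 7.45, 7.14, 7.40 and 5.34 on the si*NS* arrays. The groups overlapped, since si*NS* array 4 was below si*EPB41L4A* array 1. The gene passed the 95th percentile of the negative controls on 3 arrays, all from si*NS* cells. The fall was 2.17 on the log2 scale (4.66 ± 0.91 in si*EPB41L4A* cells against 6.83 ± 1.0 in si*NS* cells, SD, n = 4 each, standard error 0.51, adjusted p = 0.0453, limma). It passed the test only without si*EPB41L4A* array 1 or si*NS* array 4 among single omissions (adjusted p of up to 0.128), and it failed without the filter on low values (adjusted p = 0.0755) and after a repeated quantile normalization (0.0516). A second probe set of the gene had a change of -0.50 that did not pass the test (adjusted p = 0.602, limma).

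**Figure D3:**
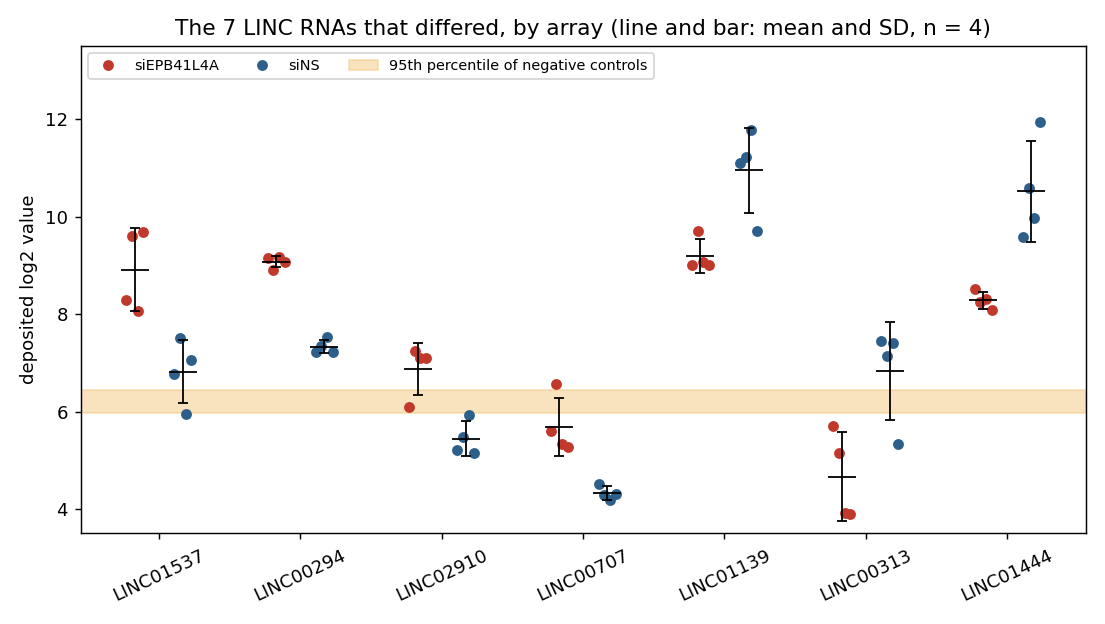
Deposited log2 values of the 7 LINC RNAs that differed, 4 siEPB41L4A arrays (red, left) and 4 siNS arrays (blue, right), with the mean and SD of each group and the range over arrays of the 95th percentile of the negative controls (orange). LINC00294, LINC01139 and LINC01444 lie above it on all 8 arrays, and the groups overlap only for LINC00313.

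The start regions of the most secure rise and fall are given so that they can be set beside those of other genes. They run 250 bases before to 50 after the start in RefSeq (GRCh38.p14), at chr11:33075900-33076199 on the plus strand for *LINC00294* and chr18:14970419-14970718 on the minus strand for *LINC01444*. Both strands were searched for the CCAAT box as CCAAT, the TATA box as TATAAA, the GC box as GGGCGG, an E-box as CACGTG, the AP-1 motif as TGANTCA and the TEAD motif as GGAATG. Capitals mark matches.
LINC00294: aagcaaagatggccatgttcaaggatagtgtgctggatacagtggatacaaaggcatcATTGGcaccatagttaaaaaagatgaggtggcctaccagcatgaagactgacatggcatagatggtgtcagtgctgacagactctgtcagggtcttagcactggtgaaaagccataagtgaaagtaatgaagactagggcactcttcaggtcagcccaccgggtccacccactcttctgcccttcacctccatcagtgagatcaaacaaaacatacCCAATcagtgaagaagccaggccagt
LINC01444: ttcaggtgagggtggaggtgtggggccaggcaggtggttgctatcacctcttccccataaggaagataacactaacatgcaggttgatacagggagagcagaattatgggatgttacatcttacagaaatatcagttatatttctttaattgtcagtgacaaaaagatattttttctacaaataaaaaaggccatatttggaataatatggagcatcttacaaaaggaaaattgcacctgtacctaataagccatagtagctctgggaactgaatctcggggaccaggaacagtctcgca
*LINC00294* held 2 CCAAT matches, 1 on each strand, and *LINC01444* held none of the 6 motifs. They held 1 and 2 CpG dinucleotides, against a median of 14 over all 27305 start regions in the RefSeq table and of 7 over the 134 LINC RNAs that are in it. GC content had a median of 53.2% in these 134 and 58.3% in all. GGGCGG was found in 29.9% of the 134 and 44.6% of all, CCAAT in 44.0% of the 134 and 35.7% of all, and TGANTCA in 12.7% of the 134 and 7.76% of all. The shares of the 134 and of all were 11.2% and 12.0% for TATAAA, 8.21% and 7.43% for CACGTG, and 13.4% and 14.0% for GGAATG. A match is a description of the sequence and not a site of binding.

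Among the 193 RNAs that did not pass the test, changes lay between -1.11 and 1.88. *LINC02210*, the highest of those with separate groups, was at 11.31, 11.28, 11.56 and 11.45 on the si*EPB41L4A* arrays, against 12.31, 12.27, 12.52 and 11.89 on the si*NS* arrays. The highest si*EPB41L4A* value lay under the lowest si*NS* value, but the change of -0.85 had an adjusted p of 0.0585 (limma). It starts 17 bases from *LINC02210-CRHR1*, a read-through gene on the same strand, so the signal cannot be given to one of them alone. *LINC01089*, also called *LIMT* and reported to restrain metastasis in breast cancer, averaged 5.92 ± 0.18 in si*EPB41L4A* cells and 6.78 ± 0.36 in si*NS* cells (SD, n = 4 each, change -0.87, adjusted p = 0.0767, limma). In all, 19 of the 200 had groups that did not overlap (9.5%, 9 higher and 10 lower), against 8.61% of all tested probe sets (3.75% higher and 4.85% lower). Of these 19, 13 did not pass the test.

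Several RNAs had large changes inside a large spread. *LINC01322* was at 5.78, 6.50, 7.36 and 8.13 on the si*EPB41L4A* arrays, against 3.44, 4.05, 6.14 and 6.62 on the si*NS* arrays. Its change of 1.88 had an adjusted p of 0.209 (limma). Both groups spread over more than 2 and overlapped, and in each the values rose with the replicate number. With that number as a block the adjusted p of *LINC01322* was 0.00423 (limma), but the arrays were not treated as pairs. A second probe set of the gene had a change of 0.10. *LINC00944* was at 5.13, 5.89, 6.37 and 4.89 on the si*EPB41L4A* arrays, against 3.76, 3.93, 4.99 and 3.18 on the si*NS* arrays. Its change of 1.60 had an adjusted p of 0.0586. *LINC01515* and *LINC00702* had changes of 1.42 and 1.10 (adjusted p = 0.0920 and 0.318), and *LINC01085* had a change of -1.11 (adjusted p = 0.110, limma). With the replicate number as a block, *LINC00944* and *LINC01515* had an adjusted p of 0.00319 and 0.00442 (limma). Of 12 further probe sets of 9 of the RNAs, 6 were tested, all 6 had the sign of the chosen probe set, and none passed the test (limma).

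LINC RNAs with a record in cancer were counted as a list. Of a list of 30, 16 were tested and 13 are among the 200. *LINC00707* rose, none fell, and 15 did not pass, beside shares that passed of 3.5% of the 200 and 2.61% of all tested probe sets. The median change of the 16 was 0.16, against -0.05 over all tested probe sets. *LINC00941*, reported to promote metastasis, was at 8.0, 7.92, 8.48 and 9.57 on the si*EPB41L4A* arrays, against 6.48, 7.26, 6.88 and 8.38 on the si*NS* arrays. Its groups overlapped through si*NS* array 4, and its change was 1.24 (adjusted p = 0.190, limma). *LINC00963*, linked to prostate cancer, and *LINC01278*, studied in papillary thyroid carcinoma, had changes of 0.18 and 0.08 at means of 10.55 and 10.36. *LINC00958*, *LINC00662* and *LINC01234* had changes of 0.39, 0.29 and -0.48. *LINC00467*, which encodes a small protein of the mitochondrial ATP synthase and was the single tested gene of 8 listed for small proteins, averaged 6.06 ± 0.51 in si*EPB41L4A* cells and 5.16 ± 0.29 in si*NS* cells (SD, n = 4 each, change 0.90, adjusted p = 0.124, limma).

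Long non-coding RNAs with names of their own were set beside them. Of 30 tested RNAs of a list of 51, *PURPL*, a regulator of p53 levels, fell and 29 did not pass. Over all tested probe sets 2.61% passed, and of 757 lncRNA genes with names other than LINC and a number 1.98%. A single call in this list, or in that of microRNA hosts below, therefore says little about the list. At an unadjusted p under 0.05, 3 of the 30 were higher and 7 lower, against 5.76% and 8.17% of all tested probe sets (limma). Their median change was -0.17, against -0.05 over all tested probe sets, and the list was not tested as a set. *PURPL* was at 5.52, 5.34, 5.83 and 5.14 on the si*EPB41L4A* arrays, against 6.11, 6.72, 6.49 and 6.70 on the si*NS* arrays. The groups were apart, the fall was 1.05 on the log2 scale (adjusted p = 0.0350, limma), and the call was kept in 2 of 8 single omissions (adjusted p of up to 0.107). It was lost after a repeated quantile normalization (0.0511) and in a fit without moderated variances (0.114). *PURPL* passed the 95th percentile of the negative controls on 3 arrays, all from si*NS* cells. Of 7 tested host genes of microRNAs, *MIR181A1HG*, which hosts members of the miR-181 family, fell to 6.89 ± 0.38 in si*EPB41L4A* cells, against 8.01 ± 0.33 in si*NS* cells (SD, n = 4 each, change -1.12, adjusted p = 0.0394, limma). It too was kept in 2 of 8 omissions (adjusted p of up to 0.117), and it was lost without the filter on low values (0.0531) and without moderated variances (0.154). None of the 196 LINC genes found in RefSeq held a microRNA hairpin of the RefSeq table within its bounds. Of 5 lncRNAs first described in thyroid cancer or melanoma, *PTCSC3* alone was tested and did not pass (change 0.97, adjusted p = 0.0809, limma).

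Genes of the machinery that makes and removes such RNAs were looked up as well. None of 22 tested genes of the nuclear exosome and its partners passed (4 had an unadjusted p under 0.05, 2 in each direction), and none of 14 tested Integrator subunits did (3 higher and 2 lower by the unadjusted p, limma). Of all tested protein-coding genes 7.42% passed and 26.6% had an unadjusted p under 0.05, so counts of 0 in lists of this size say little. The largest change was 1.32 for *EXOSC8*, an exosome subunit (adjusted p = 0.0868), and *INTS3* had -0.87 (adjusted p = 0.185, limma). The median changes were 0.03 and 0.04.

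No LINC RNA that passed the test had a tested nearest protein-coding gene that passed it too. RefSeq holds 196 of the 200, and the nearest protein-coding gene of 129 was tested. Gaps had a median of 33290 bases, and 22 of the RNAs overlapped that gene. In 14 of these 129 pairs the neighbour passed the test (10.9%, 10 higher and 4 lower), against 7.42% of tested protein-coding genes. The first share counts pairs and not genes, since some genes, such as *MTX2*, neighbour several of the RNAs. In 0 pairs did both pass, and 5 of the 7 LINC RNAs that passed had a tested neighbour. Of these neighbours not yet given, *PRKCQ*, a protein kinase C gene nearest to *LINC00707*, had a change of 0.36, and *HSF2BP*, which overlaps *LINC00313*, had -0.28 (adjusted p = 0.629 and 0.777, limma). Of the 5, *TCP11L1* alone had group means above the 95th percentile of the negative controls (7.28 in si*EPB41L4A* cells and 6.74 in si*NS* cells). Both means of *PDE2A*, *ANKRD30B*, *PRKCQ* and *HSF2BP* were under it, so the lack of a call in these says little. Changes had the same sign in 60 of the 129 pairs (46.5%), and across the pairs they correlated at 0.05, a description over genes that share the same 8 arrays.

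**Figure D4:**
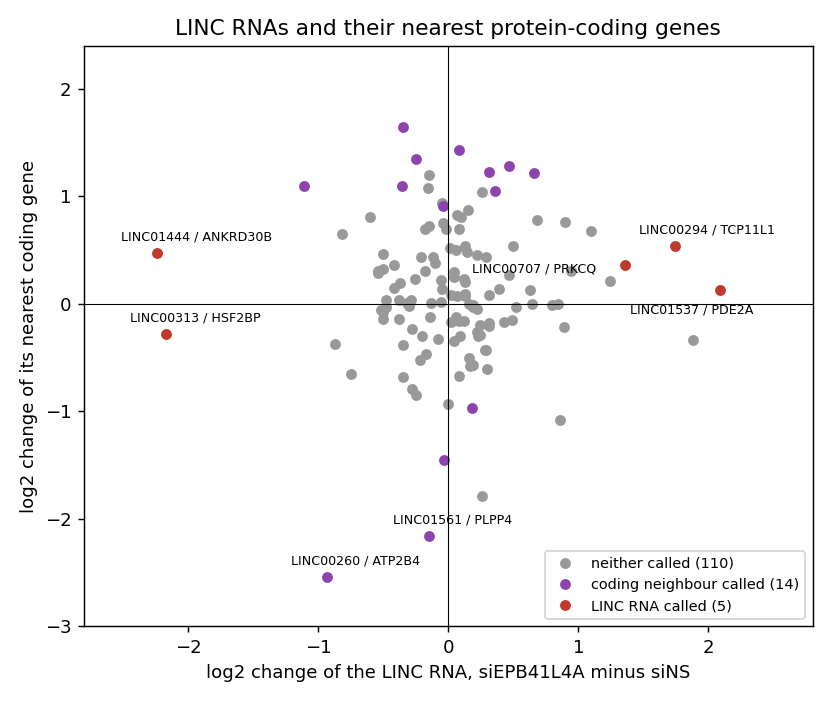
Log2 change (siEPB41L4A minus siNS) of the nearest protein-coding gene against that of the LINC RNA for 129 pairs; red, the LINC RNA passed the test (5); purple, the coding gene passed (14); grey, neither (110). No pair had both, and the changes of the pairs correlated at 0.05.

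A pair that came near was *LINC00260* with *ATP2B4*, a calcium pump of the plasma membrane, inside whose bounds and on whose strand the LINC gene lies. *LINC00260* was at 4.38, 4.14, 3.94 and 4.42 on the si*EPB41L4A* arrays, against 4.65, 5.17, 5.09 and 5.67 on the si*NS* arrays. The groups did not overlap, but no array passed the 95th percentile of the negative controls, and the change of -0.93 had an adjusted p of 0.0772 (limma). *ATP2B4* fell to 10.35 ± 0.48 in si*EPB41L4A* cells, against 12.89 ± 0.78 in si*NS* cells (SD, n = 4 each, change -2.54, adjusted p = 0.00376, limma). Signal of the LINC gene and of *ATP2B4* RNA from the same strand cannot be told apart here.

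In the other 13 pairs in which the coding neighbour passed, the LINC RNA had changes of either sign that did not pass the test. *PLPP4*, a lipid phosphatase gene 5884 bases from *LINC01561* on the same strand, fell by 2.16 (adjusted p = 0.00437, limma), while *LINC01561* had -0.15. *ZNF41*, a zinc finger gene that overlaps *LINC01560* on the opposite strand, rose by 1.43 (adjusted p = 0.0114), while *LINC01560* had 0.08. *BDNF*, a neurotrophin gene, rose by 1.22 (adjusted p = 0.0144, limma), and *LINC00678*, 20266 bases away, had 0.66 (adjusted p = 0.139) with groups that did not overlap. *BOD1L1*, a gene for protection of replication forks, rose by 1.10 (adjusted p = 0.0375), and *LINC01085*, 484243 bases away on the opposite strand, had -1.11 (adjusted p = 0.110, limma). *SPRY2*, an inhibitor of receptor tyrosine kinase signalling, and *CDH11*, a cadherin, rose by 1.35 and 1.10 (adjusted p = 0.00757 and 0.0177, limma). *LINC00564*, 884739 bases from *SPRY2*, had -0.25, and *LINC00922*, 160758 bases from *CDH11*, had -0.36. Of 5 RNAs that do not overlap their neighbour and start within 5000 bases of it on the opposite strand, pointing away from it, 3 had a tested neighbour, and neither RNA nor neighbour passed in these, among them *LINC00857* (0.07) with *ANXA11* (0.83, adjusted p = 0.0999, limma).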

How the data were processed

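BCPAP cells were transfected with si*EPB41L4A* or si*NS*, and total RNA was hybridised to Clariom D Human arrays, 4 per group. The deposited table holds log2 values, which the authors made with RMA (background correction, quantile normalization and probe summary) in Affymetrix Expression Console. Neither its version nor a genome build was given in the sources used here. RMA compresses low values, and the number of arrays limits the precision. The highest value on single arrays was 19.79 to 19.92, and whether changes are stretched on this scale was not tested. The labels place the experiments at separate time points, so the samples count as separate, without stating more of their origin.

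Of 138745 rows, 2995 controls were left out of the tests. A probe set was tested if it was above its array's median on at least 4 of 8 arrays. The platform annotation gives 1 symbol to 36176 probe sets and several to 1119, which were not named. The 955 LINC probe sets belong to 928 genes, for which the probe set of highest mean was taken, and 349 of these were tested. RefSeq (GRCh38.p14) matched 181 of the 200 by identifier and 15 by symbol.

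The difference si*EPB41L4A* minus si*NS* was fitted without a block by lmFit and eBayes of limma 3.58.1 (R 4.3.3), with Benjamini-Hochberg adjustment over the 66831 tested probe sets and a threshold of 0.05. This fit was checked on simulated data that had the spread of each of these 66831 probe sets. Of 100 simulated log2 changes of 1 it found 12, of 100 changes of 2 it found 70, and it called 3 of 66631 unchanged probe sets, so most changes of 1 would be missed in such a setting. No other changes were simulated, whereas 1747 probe sets passed in the data. The adjusted threshold is stricter where fewer probe sets change, so these shares are not those of the test on the data. Motif searches and alignments used Python 3.11.15 and Biopython 1.88.

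The LINC RNAs and the gene lists were chosen with earlier results of these data known. Named by rule were *EPB41L4A*, the 10 highest means, the 3 RNAs on each side of the limit at 200, all that passed the test, genes of each list that passed, and the 6 highest cancer-linked LINC RNAs that did not. *LINC01089*, *LINC01322*, *LINC00944*, *LINC01515*, *LINC00702*, *LINC01085*, *LINC01061*, *LINC00260*, *LINC00467*, *PTCSC3*, *EXOSC8*, *INTS3*, *LRRC34* and the neighbour pairs were named after their values were seen.

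Arrays that share a number deviated from their group means with correlations of 0.228, 0.0746, 0.201 and 0.385 over all tested probe sets, and of 0.271, 0.201, 0.157 and 0.399 over the 200 LINC RNAs. As 1 of the first is under 0.1 and no label ties a number to a time point, the arrays were not treated as pairs. Alternatives were no filter, a replicate block, a stricter filter (75th percentile), repeated quantile normalization, centring, a trended prior, Student's test without moderation, weights for the arrays, averaging the probe sets of a gene, other thresholds, the 100 highest means, all tested LINC genes, and leaving out each array.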

Additional observations from a re-analysis of the deposited data

Results flagged for a closer look

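A part of the genes named here, in 72 groups of 4 arrays, was checked for an array far from the others. In 6 groups an array's gap to its nearest neighbour exceeded Dixon's 95% limit for 4 values, which chance gives in about 1 of 20 groups. The other named genes were not checked. In si*EPB41L4A* cells, *LINC02910* was at 6.09 on array 1 against 7.09 to 7.24 on the others, *LINC01139* at 9.70 on array 2 against 9.0 to 9.06, and *LINC01002* at 15.4 on array 1 against 16 to 16.13. In si*NS* cells the array was number 4 each time among the groups checked. It gave 5.34 for *LINC00313* against 7.14 to 7.45 on the others, 7.47 for *LINC01234* against 6.68 to 6.78, and 4.6 for *PDE2A* against 5.14 to 5.15.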

How the results depend on the processing

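*EPB41L4A* passed the test under every alternative run (change -3.46 to -2.94 without single arrays). The counts of LINC RNAs that passed, 4 higher and 3 lower, moved more. With the replicate number as a block they were 8 and 3, and over all probe sets 1436 higher and 1740 lower, against 824 and 923; all 8 arrays correlated best with the array of their own number in the other group, a hint from the data and not from the design. *LINC00941*, *LINC00944*, *LINC01322* and *LINC01515* passed in addition (block adjusted p 0.0146, 0.00319, 0.00423 and 0.00442, limma). Student's test without moderation left 1 higher and 0 lower (all probe sets 158 and 154), *LINC00294* alone being called. At an adjusted p under 0.01 there were 1 and 0, and under 0.10, 6 were lower. A filter at the 75th percentile and averaging the probe sets of a gene each gave 5 lower, and RNAs above the 95th percentile of the negative controls on all arrays, added after seeing the data, included 1 that was higher.

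Leaving out single arrays gave 1 to 5 higher and 1 to 4 lower LINC RNAs, and 416 to 719 higher and 381 to 909 lower probe sets. The count of higher LINC RNAs was 2 without si*EPB41L4A* array 2, si*NS* array 2 or si*NS* array 4 and 1 without si*NS* array 1, and that of lower ones was 1 without si*EPB41L4A* array 3 or 4 or si*NS* array 1, 2 or 3. *LINC00294* and *LINC01444* were kept each time. Most of the 200 probe sets lie under the 95th percentile of the negative controls, which limits what their values can show.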
